A study of Mus musculus with 8 samples.

Results

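Versican, 6 other proteoglycans, the hyaluronan receptor Cd44 and the matrix cross-linking enzyme Lox make up the 9 genes described here, of 55357 genes in the expression table. They were chosen by name (Vcan, Srgn, Cd44, Hspg2, Sdc1, Sdc3, Sdc4, Bgn and Lox) with the So(d18:1) response of these libraries already known, so the response of the 9 genes is a description and carries no test. All 9 had enough counts to be among the 14514 genes tested. BMDM (macrophages grown from marrow cells, here of wild-type C57BL/6J animals) were cultured with the growth factor M-CSF and then given So(d18:1), which is sphingosine, at 2 μM in methanol, or methanol alone, for 6 h. Poly(A) RNA was sequenced in 4 libraries per group, and no other stimulus is named in the labels. The paper's text places these BMDM, of both groups, under inflammatory stimulation without naming the agent for this experiment, so whether a stimulus was present could not be settled here. Nothing in the labels says that replicates came from separate mice or cultures, so every p-value measures the spread between these libraries, which may be technical.

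Proteoglycans are core proteins that carry long sulfated sugar chains, the glycosaminoglycans, attached to serines that are usually followed by glycine. Versican, the large chondroitin sulfate proteoglycan of provisional matrix, binds hyaluronan and is made by myeloid cells as well as by fibroblasts. Serglycin fills secretory granules of blood cells, syndecans carry heparan sulfate at the cell surface, biglycan and perlecan sit in the matrix, Cd44 holds hyaluronan at the surface of leukocytes, and Lox oxidises lysines of collagen and elastin so that the fibres can be cross-linked.

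Counts per library lay between 20819860 and 25114354 in control and between 17748397 and 26088609 in So(d18:1) libraries. Of the tested genes, 8.94% had an adjusted p under 0.05 by edgeR's quasi-likelihood test, 3.87% higher and 5.07% lower with So(d18:1). The macrophage markers Adgre1 and Csf1r stood at 2129 to 2312 and 5570 to 6305 CPM (counts scaled to a common library total, TMM factor included) and did not pass the test. All 10 macrophage, all 10 neutrophil and all 10 monocyte markers had negative log2 fold changes, and 2, 6 and 5 of them passed. The macrophage markers that fell were Cd68, by 0.22 on the log2 scale (SE 0.04, adjusted p = 0.00349, edgeR), and Mertk, by 0.38 (SE 0.04, adjusted p = 6.2e-06, edgeR). The summed neutrophil markers lay at 1701 to 2352 CPM in control and at 1341 to 1523 CPM in So(d18:1) libraries, with control replicates 3 and 4 the highest. Bulk libraries cannot tell fewer cells of a type from less RNA per cell.

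Of the 9 genes, Vcan alone passed an adjusted p under 0.05, which is 1 of 9 where the background was 8.94%. Since the genes were chosen on this contrast, nothing is read from that count. The groups did not overlap in 2 of the 9 genes, Vcan and Lox, beside 15.0% of all tested genes. The median log2 fold change of the 9 genes was -0.03, against 0.0036 for all tested genes, with 3 values above 0 and 6 below.

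**Figure D1:**
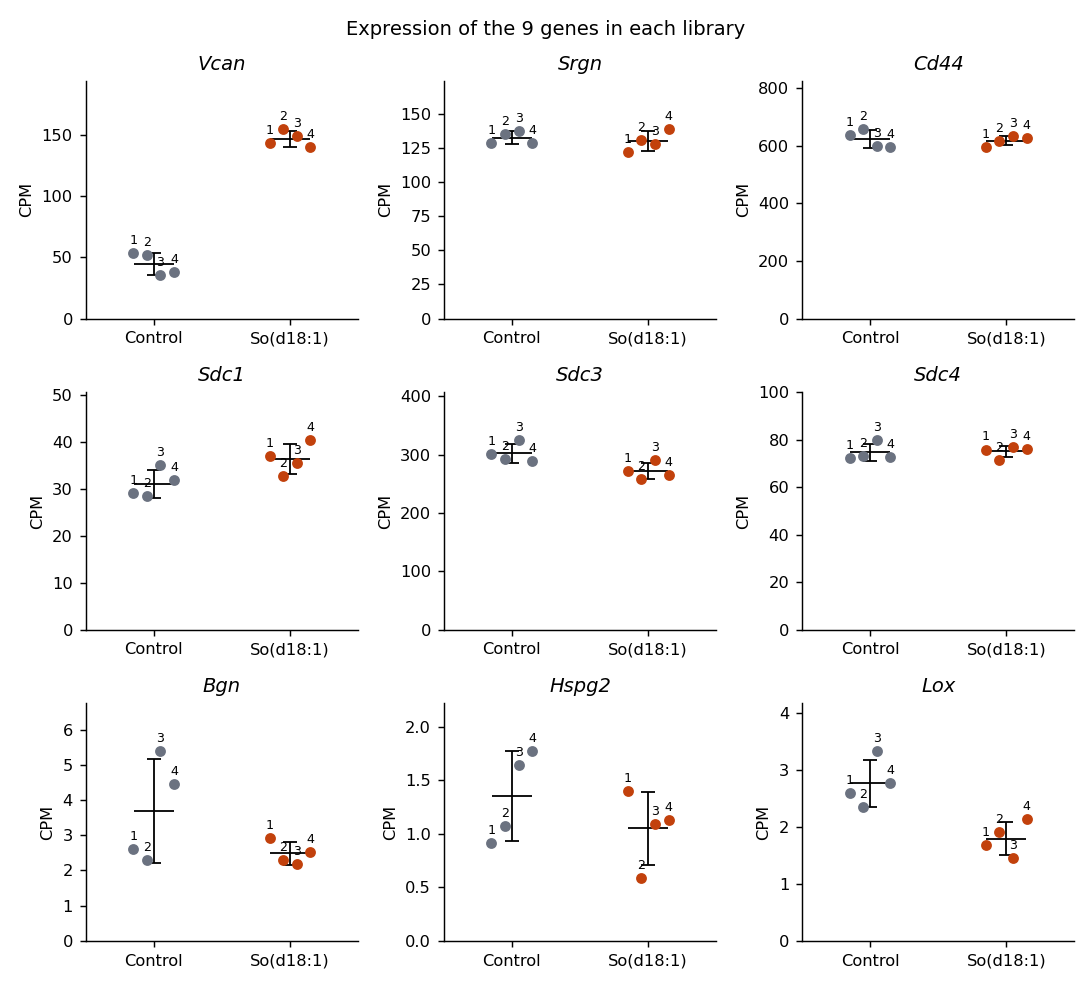
CPM of the 9 genes (vertical axes, each from 0) in the 4 control and the 4 So(d18:1) libraries. Points are libraries, labelled by replicate number, horizontal bars are means and error bars are SD (n = 4). Vcan lies at 35.7 to 53.4 CPM in control and at 139.9 to 155.2 CPM in So(d18:1) libraries, and the groups overlap in each other panel except that of Lox.

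Vcan (ENSMUSG00000021614) encodes versican, and lies on the minus strand of chromosome 13 from 89655312 to 89742509 (GRCm38, the build called mm10), with 9 annotated transcripts. The 250 bases before its transcription start are shown because this gene had the largest change of the 9, and hold the sequence just ahead of the start site. They lie at chr13:89742513-89742762 (RefSeq, GRCm38.p6, minus strand) and are written 5′ to 3′, with capitals marking the 2 matches to the GC box GGGCGG on either strand.

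Vcan promoter: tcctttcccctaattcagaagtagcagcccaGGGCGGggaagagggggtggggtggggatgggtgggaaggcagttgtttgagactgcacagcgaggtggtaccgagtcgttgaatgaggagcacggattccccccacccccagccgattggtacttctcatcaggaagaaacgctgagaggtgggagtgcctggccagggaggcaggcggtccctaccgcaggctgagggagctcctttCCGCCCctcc

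A GC box was present in 32.7% of the 32851 promoter windows of the same length. The window before Vcan held no match to the letters ACGTG of the hypoxia response core (16.6% of all windows), GCGTG of the AHR response core (28.2%), TATAAA of the TATA box (12.4%) or TGANTCA of AP-1 sites (6.75%), on either strand. The motifs ACGTG and GCGTG share their last letters. The absence of a match says only that these letters are not in this window.

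Vcan was counted at 53.4, 51.9, 35.7 and 38.1 CPM in control replicates 1 to 4 and at 143.1, 155.2, 148.9 and 139.9 CPM in So(d18:1) replicates 1 to 4. Every So(d18:1) library was above every control library, and control replicates 3 and 4 were lower than the other two. The means were 44.8 ± 9.14 and 146.8 ± 6.75 CPM (SD, n = 4 each), a 3.28-fold difference with a log2 fold change of 1.72 (SE 0.14). It rested on 847 to 1303 counts per control and 2551 to 3605 per So(d18:1) library. Only 11 of the 14514 tested genes, Vcan included, had a log2 fold change at least this large. The control libraries varied more among themselves, with a coefficient of variation of 20.4%, than the So(d18:1) libraries with 4.60%. The log2 fold change lay between 1.62 (SE 0.11, without control replicate 3) and 1.81 (SE 0.12, without control replicate 1) with a library left out. Without control replicates 3 and 4 together it was 1.48 (SE 0.06). These libraries were left out after the data were seen because their neutrophil marker levels were higher than in the other controls. No 50-base stretch of a Vcan transcript occurs in another annotated gene.

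Srgn encodes serglycin, the core protein of granule proteoglycans. It has 6 transcripts on chromosome 10 from 62493833 to 62527451, minus strand. Its chains hang from an unbroken run of 10 serine and glycine pairs, which is shown because it is the feature that makes this small protein of 152 residues a proteoglycan. The run lies at chr10:62494998-62495057 (GENCODE M21 transcript, GRCm38, minus strand), with the serine codons in capitals.

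Srgn repeat: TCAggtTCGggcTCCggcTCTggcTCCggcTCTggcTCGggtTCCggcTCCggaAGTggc

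Srgn stood at 128.7, 135.1, 137.4 and 128.4 CPM in the control libraries and at 121.6, 130.4, 127.4 and 139.0 CPM in the So(d18:1) libraries. The ranges of the groups overlapped over most of their length. Its log2 fold change was -0.03 (SE 0.05), between -0.07 and 0.000059 with a library left out.

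Cd44 is the main surface receptor for hyaluronan on macrophages, and some of its splice forms carry sugar chains. It lies on chromosome 2 from 102811141 to 102901665, minus strand. It was counted at 635.8, 659.3, 599.5 and 596.5 CPM in control and at 595.4, 615.0, 633.9 and 625.8 CPM in So(d18:1) libraries. The groups overlapped, with control replicates 3 and 4 among the lowest libraries. A log2 fold change of -0.01 (SE 0.04) was found, whose sign changed without control replicate 1, control replicate 2 or So(d18:1) replicate 1 (highest 0.02). Gene counts add up all splice forms, so a shift between them was not measured.

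The syndecans span the membrane and end in a short cytoplasmic tail. The coding sequences of the 3 tails are shown because the same start and the same end recur in each gene, while the middle differs. They are from GENCODE M21 transcripts (GRCm38), for Sdc1 at chr12:8791703-8791804 (plus strand), Sdc3 at chr4:130822708-130822806 (plus strand) and Sdc4 at chr2:164426089-164426172 (minus strand). Capitals mark the first 30 bases and the last 12, which encode the closing residues EFYA that the PDZ protein syntenin (Sdcbp) binds.

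Sdc1 tail: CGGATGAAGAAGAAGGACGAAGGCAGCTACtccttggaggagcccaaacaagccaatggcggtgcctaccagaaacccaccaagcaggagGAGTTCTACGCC

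Sdc3 tail: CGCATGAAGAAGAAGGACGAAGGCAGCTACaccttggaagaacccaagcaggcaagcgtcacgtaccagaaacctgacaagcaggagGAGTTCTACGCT

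Sdc4 tail: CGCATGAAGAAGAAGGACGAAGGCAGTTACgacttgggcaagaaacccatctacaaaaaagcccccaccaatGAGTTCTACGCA

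Sdc1 and Sdc3 share 29 of the first 30 bases, as do Sdc3 and Sdc4, and Sdc1 and Sdc4 share 28. Each pair shares 11 of the last 12. The tails are 34, 33 and 28 residues long, in proteins of 311, 442 and 198 residues for Sdc1, Sdc3 and Sdc4.

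The values of the 3 syndecans with So(d18:1) pointed to different sides. Sdc1, on chromosome 12 from 8771323 to 8793715, was at 29.2, 28.5, 35.1 and 31.9 CPM in control and at 37.1, 32.8, 35.5 and 40.5 CPM in So(d18:1) libraries. Control replicate 3 was above So(d18:1) replicate 2, so the groups overlapped. For Sdc1 the log2 fold change was 0.23 (SE 0.07) and did not pass over all libraries. It did pass in 2 of the 8 fits with a library left out, without control replicate 3 (0.29, SE 0.07) or So(d18:1) replicate 2 (0.28, SE 0.08). Those are the libraries through which the groups overlapped. It also passed without control replicates 3 and 4 together (0.34, SE 0.08).

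Sdc3, the syndecan with the highest level in these cells, lies on chromosome 4 from 130792537 to 130826319. It stood at 301.8, 292.1, 325.6 and 288.5 CPM in control and at 272.2, 259.0, 290.8 and 265.2 CPM in So(d18:1) libraries. Overlap of the groups came through So(d18:1) replicate 3, which lay above control replicate 4. The log2 fold change of -0.15 (SE 0.05) did not pass over all libraries. It passed in 2 of the 8 fits with a library left out, without control replicate 2 (-0.17, SE 0.05) or So(d18:1) replicate 3 (-0.18, SE 0.05). Exons of Gm26716 and Gm12970 on the other strand cover 6.93% and 0.801% of the exon bases of Sdc3, and the strand setting of the counting is not given in the sources used here, so its counts may include reads of these genes.

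Sdc4, on chromosome 2 from 164424247 to 164443887, was at 72.4, 73.2, 80.0 and 72.9 CPM in control and at 75.9, 71.4, 77.1 and 75.9 CPM in So(d18:1) libraries. Control replicate 3 was the highest of all libraries and the groups overlapped. Its log2 fold change of 0.01 (SE 0.05) changed sign under upper quartile scaling (-0.0042) and in 4 of the 8 fits with a library left out.

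The matrix proteoglycans were scarce. Bgn encodes biglycan, a small leucine-rich proteoglycan, on chromosome X from 73483602 to 73495933. It was counted at 2.60, 2.31, 5.40 and 4.46 CPM in control and at 2.92, 2.31, 2.19 and 2.52 CPM in So(d18:1) libraries, from 42 to 128 counts each. The libraries that stood out were control replicates 3 and 4, and control replicates 1 and 2 lay within the range of the So(d18:1) group. Its log2 fold change of -0.58 (SE 0.24) was -0.75 (SE 0.21) without control replicate 2 and -0.33 without control replicate 3. It passed in 1 of the 8 fits with a library left out, that without control replicate 2. Without control replicates 3 and 4 together its direction turned, at 0.02. The summed neutrophil markers were highest in the same control replicates, and their part in the Bgn values was not tested.

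Hspg2 encodes perlecan, the heparan sulfate proteoglycan of basement membranes. It lies on chromosome 4 from 137468769 to 137570630. It stood at 0.91, 1.07, 1.64 and 1.77 CPM in control and at 1.40, 0.59, 1.09 and 1.13 CPM in So(d18:1) libraries, from 13 to 43 counts each. Control replicates 3 and 4 were again the highest, and the groups overlapped. Its log2 fold change of -0.38 (SE 0.29) turned to 0.06 without these replicates. The spread within a group, a coefficient of variation of 31.2% in control and 32.2% in So(d18:1) libraries, is too large at these counts for smaller differences to be detectable.

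Lox, on chromosome 18 from 52516067 to 52529867, encodes lysyl oxidase. It was counted at 2.60, 2.35, 3.33 and 2.77 CPM in control and at 1.68, 1.90, 1.46 and 2.13 CPM in So(d18:1) libraries. Each So(d18:1) library was below each control library, although the gap between the groups, from 2.13 to 2.35 CPM, was narrow. The means were 2.76 ± 0.417 and 1.79 ± 0.290 CPM (SD, n = 4 each), from 54 to 79 and from 28 to 55 counts. The log2 fold change of -0.61 (SE 0.19) did not pass over all libraries. It passed in 2 of the 8 fits with a library left out, without control replicate 2 (-0.68, SE 0.21) or So(d18:1) replicate 4 (-0.71, SE 0.21). It also passed under 3 other settings. It was negative under all 17 alternatives run, from -0.71 to -0.45. One exon of AC161119.1 on the other strand covers 0.628% of its exon bases.

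Genes can be ranked against each other only per length. Levels were therefore also computed as TPM, counts divided by the deposited gene length and scaled to a common total. In control libraries Cd44 was highest at 319.9 ± 19.7 TPM, followed by Srgn at 209.7 ± 6.57, Sdc3 at 175.3 ± 7.90, Sdc4 at 101.9 ± 3.63 and Sdc1 at 28.4 ± 2.29 TPM (SD, n = 4). Vcan came sixth at 10.8 ± 2.34 TPM, and Bgn at 2.10 ± 0.813, Lox at 2.01 ± 0.273 and Hspg2 at 0.318 ± 0.0959 TPM closed the order (SD, n = 4). Neighbours in this order did not overlap in their ranges, except Bgn and Lox. The order of these genes turned without control replicate 3, at 1.79 TPM for Bgn and 1.88 TPM for Lox, without control replicate 4 (1.95 and 2.01 TPM), and without both (1.42 and 1.82 TPM).

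In So(d18:1) libraries Vcan was at 35.4 ± 2.13 TPM and Sdc1 at 33.4 ± 2.42 TPM (SD, n = 4), with ranges that overlapped, so these genes cannot be ordered. Bgn and Lox also overlapped, at 1.42 ± 0.188 and 1.31 ± 0.188 TPM (SD, n = 4). The other neighbours were in the same order as in control libraries and did not overlap. With the longest transcript in place of the deposited length the order of the 9 genes was the same.

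**Figure D2:**
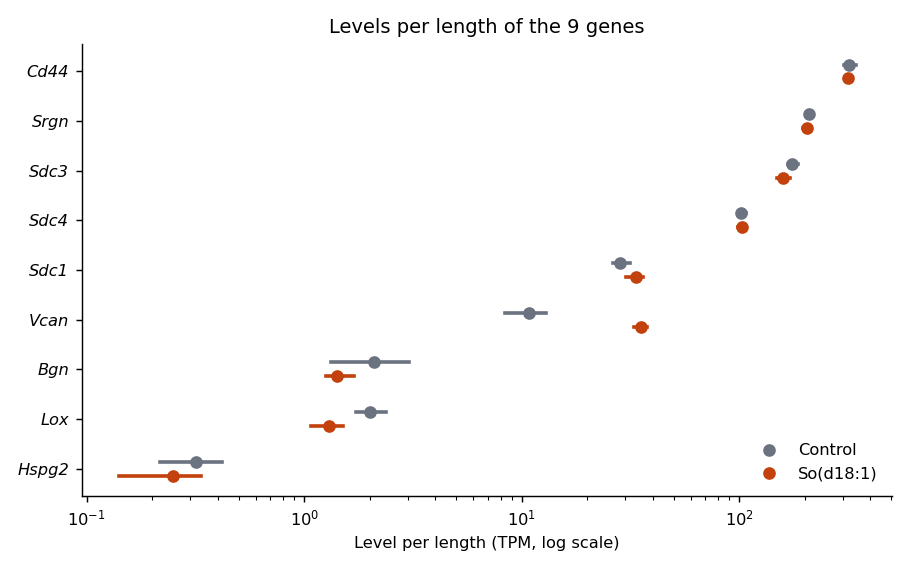
Level per length of the 9 genes in TPM (horizontal log axis), ordered by the control mean. Points are means of 4 libraries and lines run from the lowest to the highest library, grey for control and orange for So(d18:1). Vcan moves from 10.8 to 35.4 TPM, next to Sdc1, and the ranges of the groups overlap for each gene except Vcan and Lox.

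Counted as a share of the summed TPM of the 7 proteoglycans among the 9 genes, Vcan held 2.47%, 2.38%, 1.53% and 1.79% in control and 6.56%, 7.13%, 6.56% and 6.12% in So(d18:1) libraries. The sum itself was 528.6 ± 16.3 TPM in control and 537.5 ± 11.0 TPM in So(d18:1) libraries (SD, n = 4), and these ranges overlapped. Srgn and Sdc3 held most of it, 39.7% ± 0.868 and 33.2% ± 0.701 in control and 38.3% ± 1.69 and 29.5% ± 1.33 in So(d18:1) libraries (SD, n = 4). Versican transcript was a small part of this total in both groups, behind Srgn, Sdc3 and Sdc4.

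Genes that make, cut, bind and degrade these molecules were listed in 9 groups, and 116 of the 193 listed genes in the table had enough counts to be tested. Of these, 19 passed an adjusted p under 0.05 (16.4%, beside 8.94% of all tested genes), 8 higher and 11 lower with So(d18:1), and their changes, apart from those of Stab2 and Chst11, lay between -0.50 and 0.25 on the log2 scale. The median log2 fold change of the 116 genes was -0.02. Without control replicates 3 and 4 together, 12 pathway genes passed, 7 higher and 5 lower, and of the 19 the calls of Ugdh, Prg2, Xylt2, Chst11, Adam17, Glb1, Plod1, Gipc1 and Ezr were lost. Besides those named below, exons of Ugdh, Glb1, Stab2, Fn1, Sdcbp and Ezr overlap another gene over 0.122% to 5.49% of their bases. The lists were written with results of these data known, and no list was tested as a set.

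Among 11 tested genes for hyaluronan synthesis, binding and turnover, 1 rose and 1 fell. Ugdh, which makes the UDP-glucuronic acid used for hyaluronan, chondroitin sulfate and heparan sulfate, rose from 54.0 to 61.7 CPM in control to 62.3 to 71.0 CPM with So(d18:1), with a log2 difference of 0.20 (SE 0.05, adjusted p = 0.0253, edgeR). Its call was lost without control replicate 4 or So(d18:1) replicates 2 or 4, where the adjusted p reached 0.103 (edgeR). Stab2, a receptor that clears hyaluronan and other ligands, was at 6.93, 5.65, 9.53 and 7.97 CPM in control and at 4.21, 3.26, 3.07 and 2.99 CPM in So(d18:1) libraries. It fell by 1.16 on the log2 scale (SE 0.16, adjusted p = 7.1e-05, edgeR), and the groups did not overlap.

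Of the hyaluronan synthases, Has1 and Has2 had 54 and 12 counts over all 8 libraries and were not tested, and Has3 lay at 1.57 to 3.25 CPM with a log2 fold change of 0.02 (SE 0.24, adjusted p = 0.970, edgeR), whose sign was not stable. The proteins that link versican to hyaluronan were at or near 0, with 1 count of Hapln1 and 3 of Hapln3 in all. Tnfaip6, which modifies hyaluronan in inflamed tissue, had 22 counts and the receptor Lyve1 had 25, below the filter. The hyaluronan-binding protein Hmmr, which is also a mitotic spindle protein, had a log2 fold change of 0.92 (SE 0.34) that did not pass (adjusted p = 0.162, edgeR), from 6.41 to 12.02 CPM in control and 11.7 to 25.3 CPM in So(d18:1) libraries. This call depends on the test, since Hmmr passed with limma-voom (adjusted p = 0.0183). It also passed with the replicate number as a block in edgeR (adjusted p = 0.000272), although no label says that these numbers pair the groups.

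Of 14 tested genes for other proteoglycan core proteins, 1 fell. Prg2, the proteoglycan of eosinophil granules, fell from 19.6 to 28.2 CPM in control to 14.9 to 18.7 CPM with So(d18:1), falling by 0.50 on the log2 scale (SE 0.12, adjusted p = 0.0145, edgeR). Leaving out So(d18:1) replicate 2 ended this call, at an adjusted p of 0.0518 (edgeR). Acan, which encodes aggrecan, the cartilage relative of versican, was at 0 in all 8 libraries. Agrn (39.4 to 50.2 CPM) and Gpc1 (10.2 to 16.7 CPM), which encode the heparan sulfate proteoglycans agrin and glypican-1, had log2 fold changes of 0.07 (SE 0.06, adjusted p = 0.561, edgeR) and 0.16 (SE 0.12, adjusted p = 0.472, edgeR). Gpc1 passed without control replicates 3 and 4 together (0.40, adjusted p = 0.0440, edgeR).

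Cd74, the invariant chain of MHC class II and a part-time chondroitin sulfate proteoglycan, stood at 155.0, 148.6, 305.9 and 198.7 CPM in control and at 117.3, 95.3, 140.9 and 110.2 CPM in So(d18:1) libraries. The groups did not overlap, and control replicate 3 stood far above the others, with a log2 fold change of -0.80 (SE 0.27, adjusted p = 0.142, edgeR). Cd74 passed with DESeq2's Wald test (adjusted p = 0.0492) and limma-voom (adjusted p = 0.0105). It also passed with the replicate block in edgeR (adjusted p = 0.0206), although no label says that replicate numbers pair the groups. Leaving out control replicate 3 moved its log2 fold change to -0.53 (adjusted p = 0.164, edgeR). Sdc2, the fourth syndecan, was at 0.62 to 0.80 CPM in control and at 0.16 to 0.43 CPM in So(d18:1) libraries, from 90 counts in all. Its log2 fold change of -1.08 (SE 0.38) did not pass (adjusted p = 0.0803, edgeR). Dcn, the relative of Bgn that encodes decorin, had 81 counts in all.

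The sugar chains begin with a xylose on the core protein and need activated sulfate, and 3 of the 15 tested genes for these steps passed. Xylt2, a xylosyltransferase, fell from 174.5 to 212.8 CPM in control to 154.0 to 167.2 CPM in So(d18:1) libraries (log2 fold change -0.25, SE 0.05, adjusted p = 0.00610, edgeR), while Xylt1, the other xylosyltransferase, had a log2 fold change of 0.14 (SE 0.05) that did not pass (adjusted p = 0.0719, edgeR) and passed without So(d18:1) replicate 2 (0.18, adjusted p = 0.0319, edgeR). Papss1, which makes the sulfate donor PAPS, rose by 0.24 on the log2 scale (SE 0.05, adjusted p = 0.00484, edgeR), and the sulfate transporter Slc26a2 by 0.23 (SE 0.05, adjusted p = 0.00202, edgeR). Both were above all control libraries in each So(d18:1) library. Papss2 had a log2 fold change of -0.02 (SE 0.07, adjusted p = 0.893, edgeR).

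Among 14 tested genes for chondroitin and dermatan sulfate, the kind of chain on versican and biglycan, 1 fell. Chst11, which adds sulfate at the 4-position of chondroitin, was at 8.28, 6.93, 11.2 and 10.2 CPM in control and at 6.90, 4.52, 5.21 and 5.90 CPM in So(d18:1) libraries. It fell by 0.71 on the log2 scale (SE 0.15, adjusted p = 0.00728, edgeR), with a narrow gap between control replicate 2 and So(d18:1) replicate 1. Csgalnact2, which starts the chain, and Chsy1, which extends it, had log2 fold changes of 0.12 (SE 0.05, adjusted p = 0.141, edgeR) and 0.17 (SE 0.07, adjusted p = 0.102, edgeR). Chsy1 passed without control replicate 2 (0.24, adjusted p = 0.0183, edgeR) and with no filter on low counts (adjusted p = 0.0472, edgeR). Chst15, which adds a further sulfate, had -0.08 (SE 0.10, adjusted p = 0.698, edgeR).

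Heparan sulfate, the chain of the syndecans, had 11 tested genes, of which 2 rose and 1 fell. Hs2st1, which sulfates the uronic acid, rose by 0.25 on the log2 scale (SE 0.05, adjusted p = 0.00146, edgeR), and the chain polymerase Ext2 rose by 0.24 (SE 0.05, adjusted p = 0.00209, edgeR). Ndst1, which starts sulfation of the chain, fell by 0.21 (SE 0.04, adjusted p = 0.00236, edgeR), from 131.2 to 135.5 CPM in control to 112.2 to 119.8 CPM in So(d18:1) libraries. These 3 genes kept their calls with each library left out in turn. Ext1, the partner of Ext2, had a log2 fold change of -0.09 (SE 0.08, adjusted p = 0.554, edgeR).

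Of the genes that cut proteoglycans, 3 of 12 were tested. The versican-cleaving enzymes Adamts1, Adamts4 and Adamts5 had 21, 15 and 10 counts over all libraries. The sheddases of Cd44 and the syndecans were abundant. Adam10 was at 776.4 to 856.2 CPM with a log2 fold change of -0.07 (SE 0.04, adjusted p = 0.316, edgeR). Adam17 fell from 504.7 to 522.6 CPM in control to 456.4 to 476.2 CPM in So(d18:1) libraries (log2 fold change -0.14, SE 0.04, adjusted p = 0.0343, edgeR), but lost the call with any single library left out (adjusted p up to 0.108 without So(d18:1) replicate 2, edgeR), and exons of Iah1 on the other strand cover 4.35% of its exon bases. Hpse, the heparanase, had -0.06 (SE 0.06, adjusted p = 0.603, edgeR).

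All 14 lysosomal genes for glycosaminoglycan breakdown were tested, of which 2 rose and 1 fell. The gene that fell is among those not reported here. Sumf1, which activates the sulfatases, rose by 0.19 on the log2 scale (SE 0.05, adjusted p = 0.0250, edgeR), and Glb1, the beta-galactosidase, by 0.15 (SE 0.05, adjusted p = 0.0471, edgeR). With single libraries left out the call of Sumf1 was lost in 4 of 8 fits (control replicates 1 and 4, So(d18:1) replicates 2 and 4, adjusted p up to 0.109) and that of Glb1 in 7, all but that without So(d18:1) replicate 3 (up to 0.157, edgeR). The sulfatase Arsb and the glucuronidase Gusb had log2 fold changes of -0.01 and 0.02, neither of which passed.

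Lox has relatives and substrates, of which 23 of 36 listed genes were tested and 2 fell. Of the Lox family, Loxl3 was the member with enough counts, at 16.5 to 18.6 CPM in all libraries (log2 fold change 0.03, SE 0.07, adjusted p = 0.867, edgeR), while Loxl1, Loxl2 and Loxl4 had 53, 77 and 36 counts in all and the elastin gene Eln had 2. Fn1, which encodes fibronectin, fell from 62.5 to 83.6 CPM in control to 50.1 to 59.7 CPM in So(d18:1) libraries (log2 fold change -0.38, SE 0.09, adjusted p = 0.0216, edgeR), and was lost without control replicate 1 or So(d18:1) replicates 2, 3 or 4 (adjusted p up to 0.0798, edgeR). Plod1, which hydroxylates lysines of collagen, fell by 0.17 on the log2 scale (SE 0.04, adjusted p = 0.0178, edgeR), and was lost without control replicates 1 or 4 or So(d18:1) replicates 1 or 3 (adjusted p up to 0.0741, edgeR). Bmp1, the protease that frees active Lox from its precursor, had 93 counts in all, and Efemp2, which brings Lox to elastin, had a log2 fold change of 0.08 (SE 0.11, adjusted p = 0.729, edgeR).

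Proteins that bind the tails of the syndecans and Cd44 had 11 tested genes, of which 1 rose and 2 fell. Sdcbp, which encodes syntenin, the partner of the EFYA ends shown above for the syndecan tails, was at 876.6, 877.9, 932.5 and 883.4 CPM in control and at 728.3, 765.8, 787.9 and 797.5 CPM in So(d18:1) libraries. All So(d18:1) libraries were below all control libraries, and it fell by 0.21 on the log2 scale (SE 0.04, adjusted p = 0.00267, edgeR). Ezr, which encodes ezrin and ties Cd44 to actin, fell by 0.25 (SE 0.06, adjusted p = 0.00974, edgeR). Its relatives Msn and Rdx, for moesin and radixin, had -0.02 (SE 0.04, adjusted p = 0.847, edgeR) and -0.05 (SE 0.04, adjusted p = 0.562, edgeR). Gipc1, a PDZ protein that binds syndecan-4, rose by 0.21 (SE 0.06, adjusted p = 0.0305, edgeR) and was lost without control replicates 1 or 4 or So(d18:1) replicates 2 or 4 (adjusted p up to 0.115, edgeR).

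**Figure D3:**
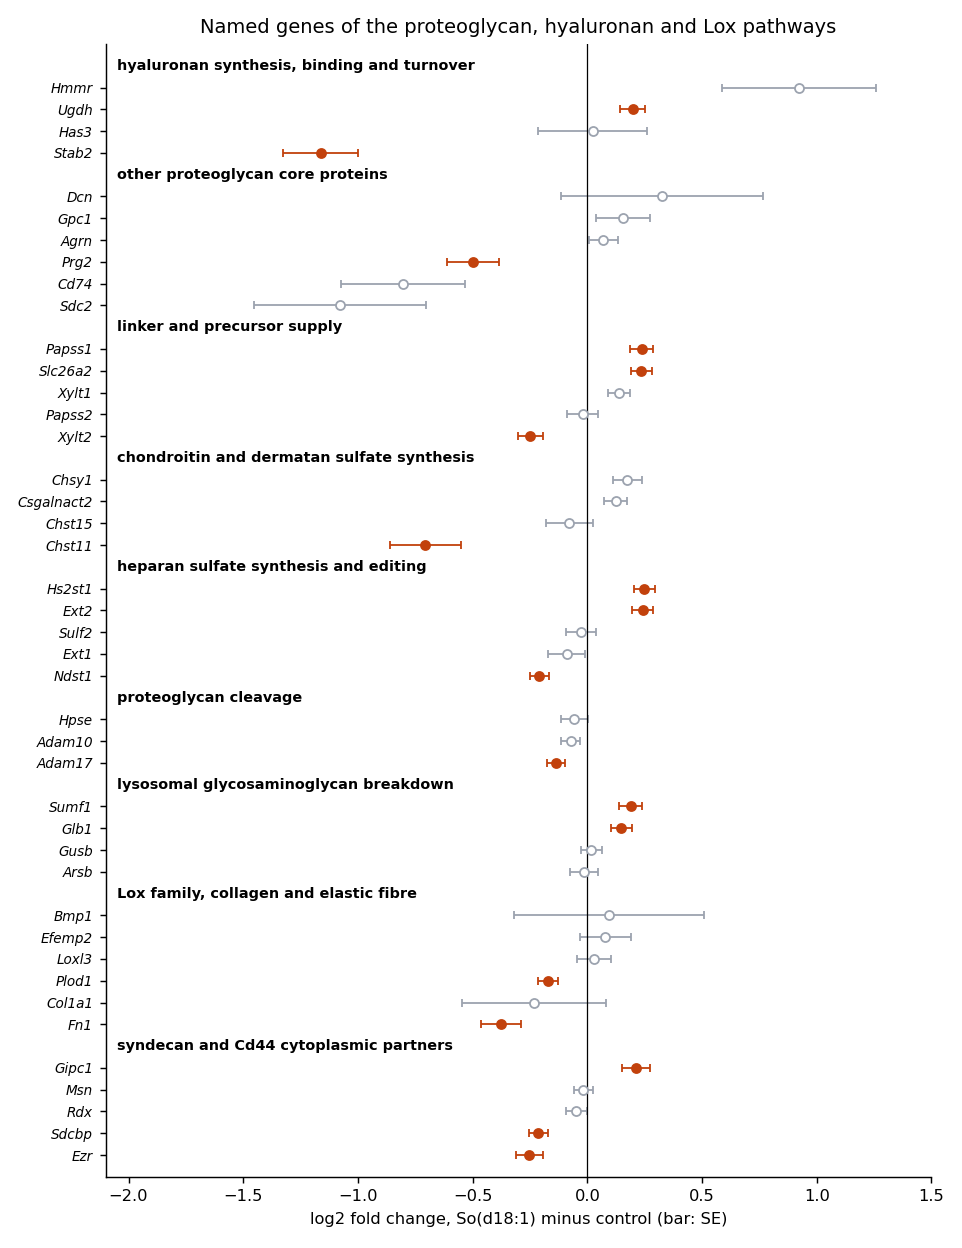
log2 fold change (horizontal axis, So(d18:1) minus control, bars are SE) of the tested genes of 9 pathway groups that are named in the text. Filled orange points had an adjusted p under 0.05 over all 14514 tested genes by edgeR's quasi-likelihood test, open grey points did not. Apart from Stab2 at -1.16 and Chst11 at -0.71, the filled points lie between -0.50 and 0.25.

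The 3 genes whose levels ran most like those of Vcan over the 8 libraries were found by the root mean square difference of log2 CPM after the control mean of each gene was set to 0. They were Jaml, an adhesion protein of leukocytes (0.20), Ly6a, the surface protein known as Sca-1 (0.21), and Gpr141, an orphan receptor (0.21). Their own log2 fold changes were 1.66, 1.57 and 1.52, near that of Vcan. In Vcan the control libraries were split, with replicates 1 and 2 at 0.28 and 0.24 above and replicates 3 and 4 at -0.30 and -0.21 below the control mean. This split was not seen in the 3 genes. Gpr141 stayed between -0.06 and 0.07. Replicate 3 was above the control mean in Jaml (0.095) and Ly6a (0.087), and replicate 4 below it (-0.19 and -0.23). Exons of Gm10684 on the other strand cover 12.8% of those of Jaml, and 19% of the 50-base stretches of Ly6a occur in other genes such as Ly6c1, so counts of both may hold reads of these genes.

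For Lox the same measure named Gdf3 (0.11) and Inhba (0.12), both ligands of the TGF-beta superfamily, and Pomk (0.12), a kinase for the sugar chain of dystroglycan. Their log2 fold changes were -0.53, -0.63 and -0.54. Control replicate 3 was the highest library for all 4 genes, at 0.27 above the control mean for Lox, 0.18 for Gdf3, 0.18 for Inhba and 0.13 for Pomk. Likeness over 8 libraries in 2 groups mostly repeats the difference between the groups, and is a description.

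**Figure D4:**
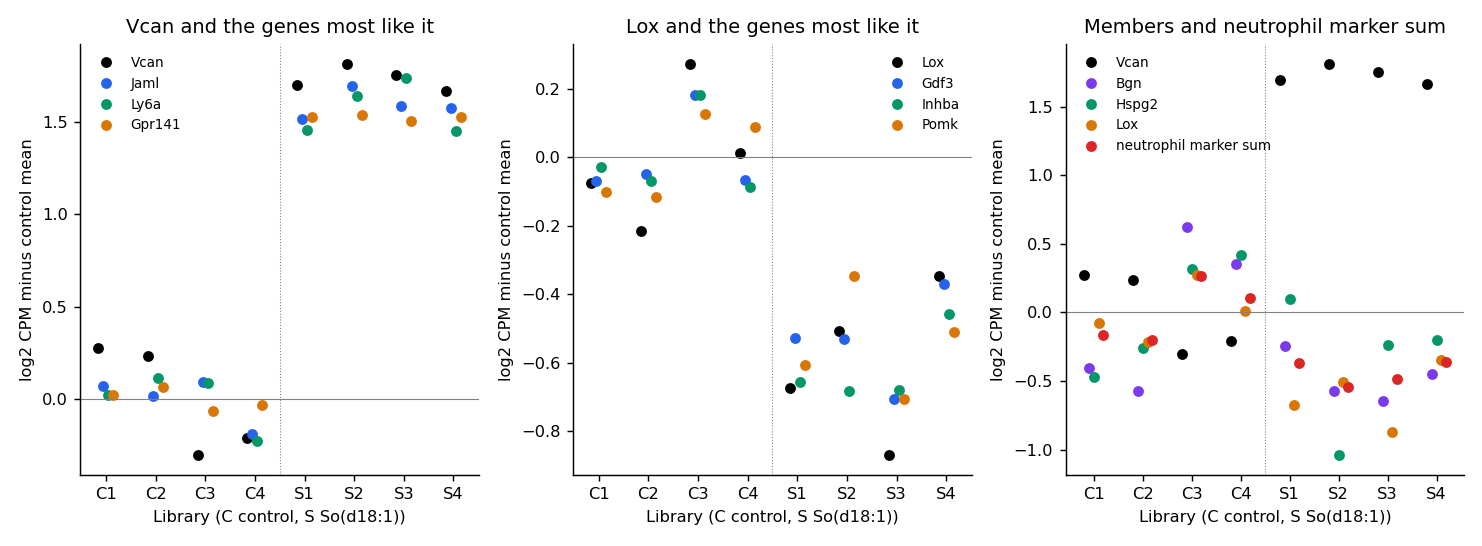
log2 CPM minus the control mean of each gene (vertical axes) in control libraries C1 to C4 and So(d18:1) libraries S1 to S4. The panels hold Vcan with its 3 most similar genes, Lox with its 3, and 4 of the 9 genes with the summed neutrophil markers. In C3 and C4 the neutrophil sum lies at 0.26 and 0.10, Bgn at 0.62 and 0.35, and Vcan at -0.30 and -0.21.

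Sources outside the macrophage were looked for by their markers. Of the fibroblast markers, Pdgfra had 31 and Thy1 12 counts in all. Others were better counted, with 518 for Col1a2, 382 for Pdgfrb, 309 for Col1a1 and 279 for Cxcl12. Col1a2 had a log2 fold change of -0.55 (SE 0.17) that did not pass (adjusted p = 0.0507, edgeR), and its groups did not overlap. Of the 7 tested markers, 4 had positive and 3 negative log2 fold changes, and none passed. The summed 10 genes lay at 8.92 to 12.5 CPM in control and 7.95 to 10.7 CPM in So(d18:1) libraries, ranges that overlapped. The 8 mast cell and basophil genes summed to 5.00 to 6.40 CPM in control and 3.30 to 5.52 CPM in So(d18:1) libraries. Most of that was Kit (3.21 to 5.94 CPM), while Cma1, Tpsb2 and Tpsab1 were at 0 in all libraries, Cpa3 had 29 counts and Mcpt8 had 16. Mcpt8 was higher in each So(d18:1) library (0.0905 to 0.260 CPM) than in any control library (0 to 0.0481 CPM). Endothelial genes summed to 36.7 to 46.6 CPM in control and 32.0 to 39.8 CPM in So(d18:1) libraries. Vwf (16.8 to 19.8 CPM) and Pecam1 (9.50 to 20.6 CPM) made up most of this sum, with Cdh5 at 1.81 to 4.13 and Kdr at 1.58 to 3.33 CPM. The 8 dendritic cell genes summed to 19.9 to 27.4 CPM in control and 18.1 to 22.8 CPM in So(d18:1) libraries. Of them, Flt3 had a log2 fold change of 0.51 (SE 0.20, adjusted p = 0.126, edgeR) and Itgax one of -0.40 (SE 0.16, adjusted p = 0.140, edgeR). The sum of the 6 megakaryocyte genes was, as for Vcan, above all control libraries in each So(d18:1) library, at 224.7 to 254.4 CPM in control and 353.7 to 425.6 CPM in So(d18:1) libraries. Pf4, a platelet chemokine gene, made up most of this sum and rose by 0.76 on the log2 scale (SE 0.06, adjusted p = 2.1e-06, edgeR). The other 4 tested genes of the list had negative log2 fold changes, with -0.61 (SE 0.23, adjusted p = 0.149, edgeR) for Itga2b and -0.71 (SE 0.40, adjusted p = 0.297, edgeR) for Gp9, genes that define the lineage. Itga2b passed with no filter on low counts (adjusted p = 8.4e-05, edgeR) and without control replicate 2 (-0.75, adjusted p = 0.0264, edgeR). It also passed with the replicate block (adjusted p = 0.00242, edgeR), although no label says that replicate numbers pair the groups. The monocyte markers summed to 3385 to 3608 CPM in control and 2813 to 2996 CPM in So(d18:1) libraries, lower in the group with more Vcan. Within control the sum was higher in replicates 1 and 2 (3540 and 3608 CPM) than in replicates 3 and 4 (3385 and 3423 CPM), as Vcan was. Ly6c2 fell by 0.37 on the log2 scale (SE 0.08, adjusted p = 0.00295, edgeR). The part of these cell types in the values of the 9 genes was not tested.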

How the data were processed

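Poly(A) RNA of BMDM was sequenced in 8 libraries, 4 control and 4 So(d18:1). Per the submitters' processing notes, reads were processed with Trim Galore 0.6.7, HISAT2 2.2.1 and featureCounts 2.0.1 on mm10. The authors deposited whole-number counts per gene, not normalized, with a gene length. The strand setting and the treatment of multi-mapping reads are not given in the sources used here.

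Of 55357 genes, 52081 have a symbol in GENCODE M21 (GRCm38), and those without one held 0.169% to 0.325% of counts. Genes passing filterByExpr (14514) were scaled by TMM and tested with edgeR 4.0.16 in R 4.3.3 (robust quasi-likelihood F test, Benjamini-Hochberg adjustment). Standard errors were taken as |log2 fold change| over the root of the F statistic, and log2 CPM used a prior count of 2. TPM used the deposited gene length, which equals the annotated exon length in 98.7% of genes with a symbol and 8 of the 9 members. The precision is limited by 4 libraries per group, and depth limits genes under about 100 counts.

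The members and all gene lists were chosen with earlier results of these data known. Named were the members, core genes of 9 pathway and 8 marker lists, up to 4 genes per pathway list with the smallest p (adjusted p under 0.05, mean log2 CPM at least 1), and 3 genes most like each of Vcan and Lox. Results of some listed genes are not reported here. Other markers and pathway genes were named after their values were seen. Of the list symbols, 1 had no identifier in the table. Promoters are from RefSeq (8 of 9 members matched), coding sequence from GENCODE M21. Shared sequence was counted in 50-base words. No label says that replicate numbers pair the groups. Deviations of same-numbered libraries correlated at -0.0035 to 0.10, and those of differently numbered ones at -0.14 to 0.11. No pairing was seen, but so few libraries cannot exclude one. The edgeR fit was first tested on simulated data with known changes. Alternatives used DESeq2 1.42.0 and limma 3.58.1. Figures used matplotlib 3.10.9.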

Additional observations from a re-analysis of the deposited data

Results flagged for a closer look

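For 8 of 156 sets of 4 libraries, 1 library lay far from the rest, judged by its distance to the closest library divided by the span of all 4, and chance alone gives about 7.8 such sets (1 in 20). Control replicate 3 was such a library for Sdc4 (ratio 0.896, log2 CPM of 6.32 beside 6.18 to 6.20), for Sdcbp (ratio 0.874, 9.87 beside 9.78 to 9.79) and for Gdf3 (ratio 0.908, 4.22 beside 3.97 to 3.99). Control replicate 2 was so for Sdc2 (ratio 0.917, -0.18 beside -0.50 to -0.47). Replicate 4 of the So(d18:1) group was so for Csgalnact2 (ratio 0.846, 6.51 beside 6.40 to 6.42), Adgre1 (ratio 0.832, 11.17 beside 11.06 to 11.08) and Inhba (ratio 0.880, 1.76 beside 1.53 to 1.56), and replicate 1 for Agrn (ratio 0.879, 5.65 beside 5.37 to 5.40). No cause was tested for these values.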

How the results depend on the processing

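The log2 fold change of Vcan lay between 1.48 and 1.81 under the 17 alternatives, and Vcan passed in each. The members were chosen on this contrast, so their calls under other settings describe the values and are no support for them. Signs of other members turned under 5 alternatives for Sdc4, 3 for Cd44, and 1 each for Srgn, Hspg2 and Bgn. The number of the 9 members that passed was 1, beside 1298 of all 14514 tested genes (counts of all genes follow in brackets), and 1 with limma-voom (1309). It was 2 with DESeq2's Wald test (1474), library totals alone (1289) or an unadjusted p under 0.05 with a fold change of at least 1.5 (564). It was 3 with DESeq2's size factors (1290), upper quartile scaling (1302) or at least 10 counts in every library (1291 of 13149). With no filter on low counts it was 4 (1723 of 28076), and with a library left out 1 to 4. Over all libraries 3 members that did not pass lay close to the threshold, so the count of members moves with the setting. As the members were chosen on this contrast, this closeness is no support for a response. Sdc3 passed in 8 of the 17, Sdc1 in 6, Lox in 5 and Bgn in 2. With the replicate block 3 members and 1784 genes in all passed, but no label says that the numbers pair these libraries. The count of all genes was 1298, 815 to 1370 with a library left out (lowest without So(d18:1) replicate 2), and 564 by unadjusted p and fold change. That of pathway genes was 19, 13 to 20 with a library left out, and 7 by unadjusted p and fold change. Without control replicates 3 and 4 together, an alternative chosen after seeing the data, 2 members, 12 pathway genes and 865 genes in all passed, from fewer libraries. Upper quartile scaling gave 455 higher and 847 lower genes, against 562 and 736. By per-length level, all 9 members kept their place in both groups with the longest transcript as length, 7 to 9 with a library left out and 7 without control replicates 3 and 4 together, where Bgn and Lox changed places in control libraries. Signs of values near 0 turned with a library left out, over -0.23 to 0.19 for Has3, -0.072 to 0.031 for Sulf2, -0.042 to 0.0016 for Arsb, -0.013 to 0.053 for Gusb, -0.24 to 0.42 for Bmp1, -0.034 to 0.0041 for Msn, -0.48 to 0.040 for Col1a1 and -0.013 to 0.33 for Kdr. They also turned without control replicates 3 and 4 for Has3 (-0.14), Sulf2 (0.081), Loxl3 (-0.019), Msn (0.023) and Col1a1 (0.28), and with limma-voom for Has3 (-0.0072). The cause was not tested. Bgn, Hspg2 and Lox rest on 13 to 128 counts per library, which limits what could be detected.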
